A study of Mus musculus with 15 samples.

Results

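The comparison described here sets light zone against dark zone among germinal centre B cells of low affinity. Its members are the 8 arrays whose titles read Lzlo (light zone, low affinity, 4 arrays) or Dzlo (dark zone, low affinity, 4 arrays), out of 15 arrays in all. The other arrays hold high-affinity cells of the light zone (Lzhi, 3 arrays) and of the dark zone (Dzhi, 4 arrays). All groups share one source. SwHEL B cells, which carry a knocked-in receptor for hen egg lysozyme and the CD45.1 marker, were transferred into C57BL/6J mice carrying CD45.2, and the recipients received sheep red blood cells coupled to HEL3x, a mutant of the lysozyme, as the immunogen. On day 10 donor-derived germinal centre B cells (CD45.1+, CD45.2-, IgG1+, CD38 low) of female mice were sorted from spleen as high or low affinity, with light zone cells taken as CD86 high and CXCR4 low and dark zone cells as the reverse. The labels do not say how low affinity was gated, nor whether the arrays come from separate mice. The p-values therefore measure the spread between these samples, which may be technical. All donor cells started from the same engineered receptor, so the groups model B cells of a single starting specificity.

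In a germinal centre, dark zone B cells divide and mutate their antibody genes, and light zone B cells test the mutated receptor on antigen held by follicular dendritic cells and present peptides of that antigen to T follicular helper cells. Signals from the receptor and from CD40 decide which light zone cells survive, return to the dark zone or leave as memory or plasma cells. Cells move between the zones through the chemokine receptors CXCR4 and CXCR5.

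Values are RMA values on the log2 scale, and a difference is Lzlo minus Dzlo, so that 1 unit is a 2-fold difference. The sample descriptions carry an experiment code, called A to D here, and each code has 1 Lzlo and 1 Dzlo array. Code B is written differently on dark zone and light zone arrays, and both forms were read as 1 experiment. Whether they are 1 experiment is not stated. Array values below are always given in the order A, B, C, D. Arrays of the same experiment deviated together from their group means, with correlations over genes of 0.58, 0.64, 0.38 and 0.77. Arrays of different experiments had correlations from -0.64 to 0.38, with a mean of -0.18. That negative mean is in part fixed, since deviations from a group mean cancel out within the group. The experiment was also fitted as a block, which compares zones within experiments. The block leaves each Lzlo minus Dzlo difference as it is and changes only its error.

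The sorted cells carried the genes of their label. Bcl6, Mybl1, S1pr2, Fas and Gcsam of germinal centre B cells, and Cd79a, Cd79b, Pax5 and Ms4a1 of B cells in general, had mean levels between the 85.0th and the 99.5th percentile of all genes. The neutrophil gene S100a9 stood at the 89.9th, so such a rank alone does not set the label genes apart from genes of other cells. Markers of other cells stood out in experiment D. The mean level of 22 neutrophil markers was 7.92 in its Lzlo array and 6.74 in its Dzlo array, against 4.83 to 5.62 in the other low-affinity arrays. Of these markers 20 had a difference above 0, with a median of 0.46 that was 0.13 without the pair of experiment D and -0.22 without its Lzlo array alone, and none passed. S100a8, a neutrophil calcium-binding protein, was measured at 6.22, 8.5, 7.67 and 10.63 in Dzlo and at 6.55, 8.78, 8.63 and 11.71 in Lzlo. S100a9 was at 7.68, 9.58, 7.21 and 11.25 in Dzlo and at 6.47, 9.86, 9.82 and 12.24 in Lzlo. T cell markers, 19 of which were measured, averaged 6.51 in the Lzlo array of experiment D and 5.04 to 5.71 in the other low-affinity arrays, and 13 of them had a difference above 0 (median 0.23, or 0.006 without that experiment). The Lzlo array of experiment C also stood above its Dzlo partner for Ngp, a neutrophil granule gene (8.72 against 4.71), for Lyz2, a lysozyme of myeloid cells (8.24 against 6.26), and for Cd3d, a chain of the T cell receptor complex (7.32 against 5.0). In the plot of marker lists, both arrays of experiment D lay above the other low-affinity arrays for neutrophil, NK cell, myeloid, erythroid, platelet and stromal markers. The myeloid list was at 5.49 in its Dzlo array and 5.84 in its Lzlo array, against at most 5.34 in the others. The stromal list was at 5.81 and 5.84, against at most 5.74. For T cell markers the Lzlo array of experiment D was the highest. Its Dzlo array, at 5.65, lay below the Lzlo array of experiment C, at 5.71. Each call below is therefore also given without the Lzlo and Dzlo arrays of experiment D.

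**Figure D1:**
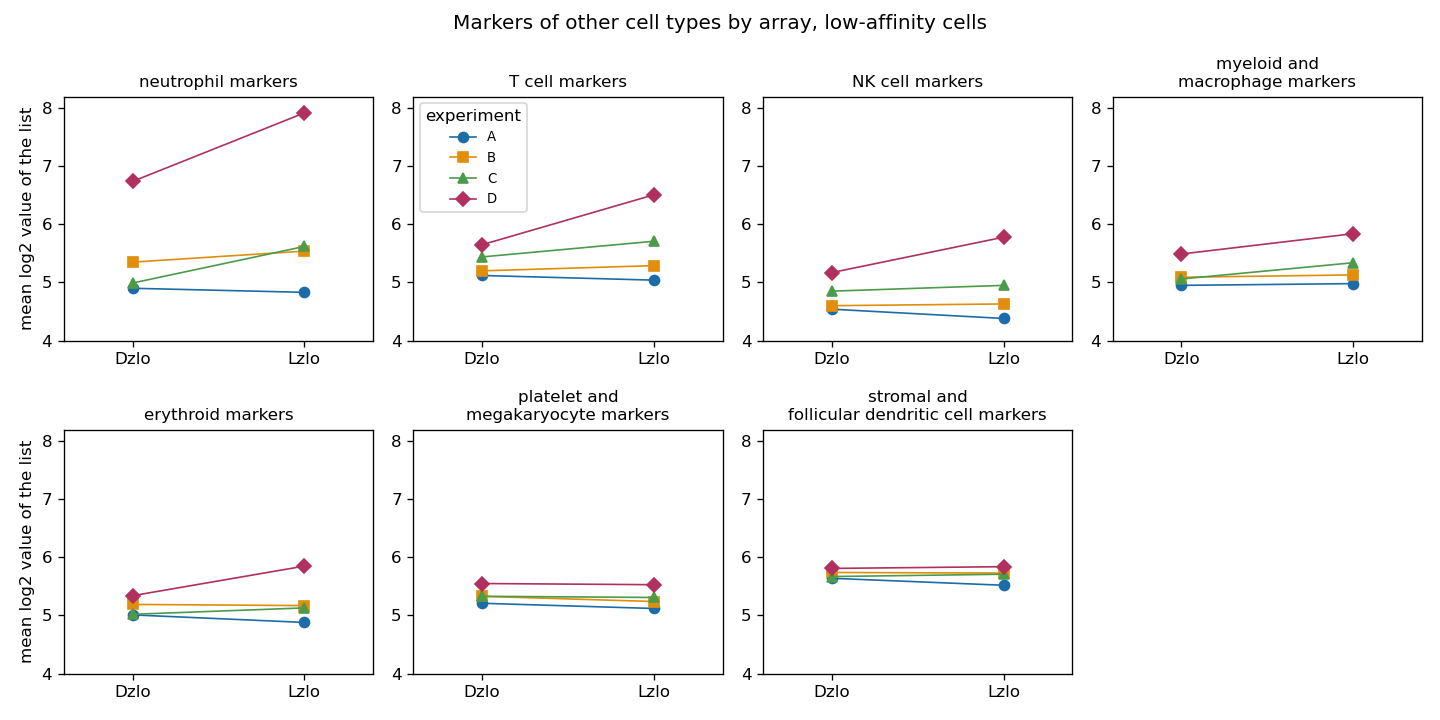
Mean log2 RMA value of 7 lists of marker genes of other cell types (vertical axis) in each low-affinity array, dark zone to the left and light zone to the right, with a line joining the arrays of 1 experiment. The neutrophil markers reach 7.92 in the Lzlo array of experiment D, and the stromal list stays between 5.52 and 5.84.

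In limma, 2 of 19938 genes passed an adjusted p of 0.05 between the zones (0.01% of genes), Fcer2a and Aldoc, both higher in Lzlo, and 703 had an unadjusted p under 0.05 (3.53%). With the experiment as a block 30 genes passed (0.15%), of which 17 rose (0.0853%) and 13 fell (0.0652%) in the light zone, with 1102 at an unadjusted p under 0.05 (5.53%). In sorted pools of cells, fewer cells of a kind and less RNA per cell cannot be told apart. Each of the 30 had the same sign in 4 of 4 experiments, as had 17.3% of all genes. In 27 of the 30 the arrays of the zones did not overlap, as in 1.91% of all genes. Both shares are partly fixed by choosing genes that passed. Without the low-affinity pair of experiment D, 3 genes passed without the block (0.015%) and 24 with it (0.12%). Those 24 include 15 of the 30. All 30 kept their sign, which is fixed, since their experiments all shared 1 sign. The block counts rest on the joined code B: with the code as written 11 of the 30 passed and no other gene. They also rest on single arrays. The block count was 2 without Lzlo replicate 1, 3 without Lzlo replicate 2, 5 without Lzlo replicate 4, 15 without Lzlo replicate 3 and 9, 18, 14 and 16 without Dzlo replicates 1 to 4. Leaving out Dzhi replicate 1, 2 or 4 gave 18, 16 or 59, and leaving out Lzhi replicate 1 or 2 gave 16 or 17. Fcer2a alone passed in all 15 such fits with the block, and Myl4 passed in 14. In what follows a gene "rose" or "fell" in the light zone where it passed with the block, and each error is the standard error of the fit without the block.

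**Figure D2:**
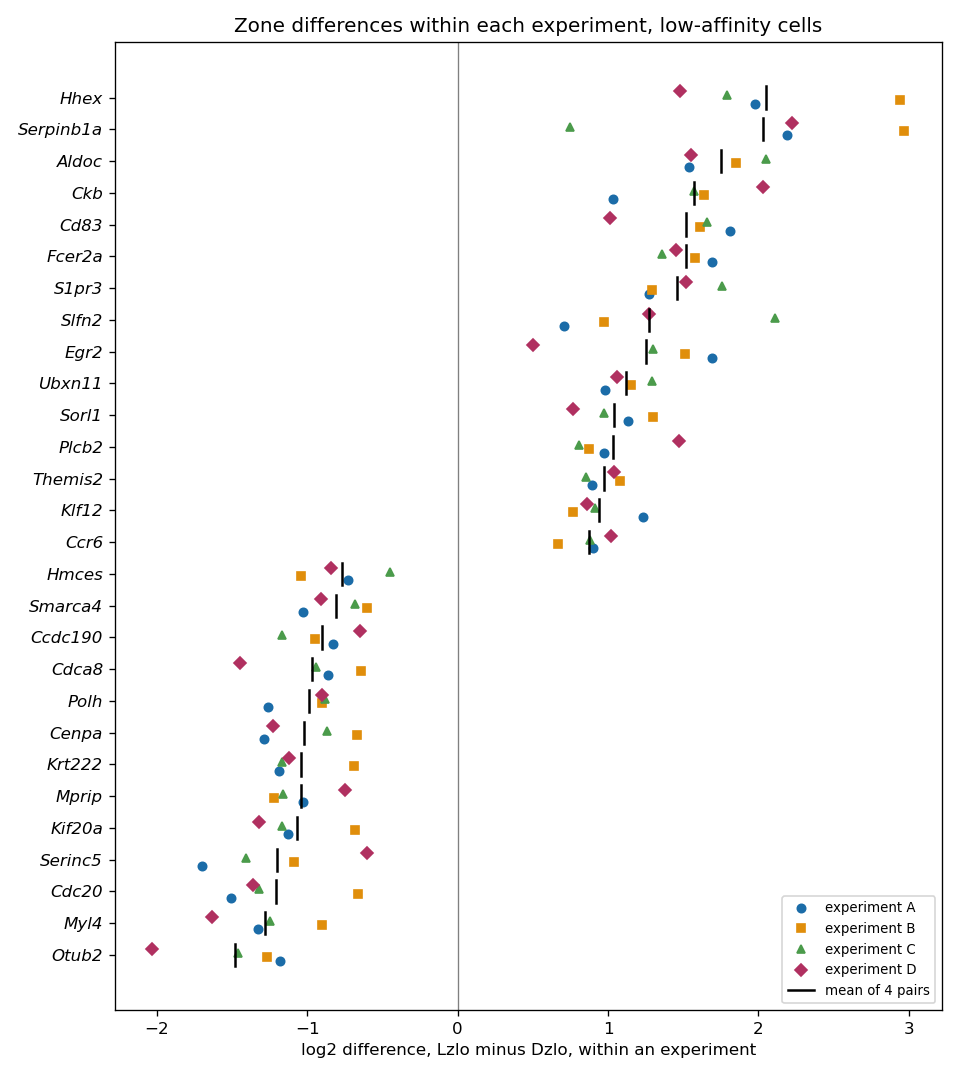
Difference Lzlo minus Dzlo (log2, horizontal axis) within each experiment for the 28 named genes that passed with the experiment as a block, with a vertical tick at the mean of the 4 pairs. All points of a gene lie on the same side of 0, and those of Hhex run from 1.48 to 2.94.

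Fcer2a encodes CD23, the low-affinity IgE receptor of B cells, and Aldoc encodes aldolase C, a glycolytic enzyme. Fcer2a was measured at 9.22, 9.23, 9.70 and 8.90 in Dzlo and at 10.91, 10.81, 11.06 and 10.35 in Lzlo. Aldoc was at 6.85, 6.23, 7.01 and 6.72 in Dzlo and at 8.39, 8.08, 9.06 and 8.27 in Lzlo. For both genes every light zone array lay above every dark zone array. Fcer2a rose by 1.52 ± 0.18, a 2.86-fold difference (adjusted p = 0.0154, or 0.00421 with the block), and Aldoc by 1.75 ± 0.24, a 3.36-fold difference (adjusted p = 0.0374, or 0.0104 with the block). Without experiment D, Fcer2a differed by 1.54 ± 0.16 (adjusted p = 0.00597) and Aldoc by 1.82 ± 0.29 (adjusted p = 0.0914, or 0.0451 with the block). Leaving out arrays in turn without the block, Fcer2a passed in 11 of 15 fits and Aldoc in 5.

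The upstream sequences of these genes are shown because they passed without the block, and that of Cdc20, a mitotic gene described below, because it holds the motif searched for its list. They are the 250 bases before the outermost gene start that RefSeq lists in GRCm38.p6, read 5′ to 3′ on the gene's strand, and that build differs from the mm8 named in the submitters' processing notes. The motifs were searched on both strands. Every motif was searched in Aldoc and Fcer2a, but in Cdc20 only that of its list. Letters of its window that fit the kappaB-like pattern are therefore not marked. Capitals mark the matches found, in Aldoc and Fcer2a to a kappaB-like pattern (GGG, then 5 bases of any kind, then CC, or its reverse complement) and in Cdc20 to the cell cycle genes homology region TTTGAA (on the other strand it reads TTCAAA). The window of Aldoc is chr11:78322823-78323072 on the plus strand, that of Fcer2a is chr8:3694175-3694424 on the minus strand and that of Cdc20 is chr4:118437344-118437593 on the minus strand.
Aldoc: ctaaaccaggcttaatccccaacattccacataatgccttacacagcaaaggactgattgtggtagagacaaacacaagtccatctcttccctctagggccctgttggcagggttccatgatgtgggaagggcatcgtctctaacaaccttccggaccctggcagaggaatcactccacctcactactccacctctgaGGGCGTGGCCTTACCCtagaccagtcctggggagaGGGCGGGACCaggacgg
Fcer2a: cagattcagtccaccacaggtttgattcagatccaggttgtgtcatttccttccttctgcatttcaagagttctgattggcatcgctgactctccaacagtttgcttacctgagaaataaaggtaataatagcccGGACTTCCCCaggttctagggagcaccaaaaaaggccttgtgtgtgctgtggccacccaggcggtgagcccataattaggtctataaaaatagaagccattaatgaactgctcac
Cdc20: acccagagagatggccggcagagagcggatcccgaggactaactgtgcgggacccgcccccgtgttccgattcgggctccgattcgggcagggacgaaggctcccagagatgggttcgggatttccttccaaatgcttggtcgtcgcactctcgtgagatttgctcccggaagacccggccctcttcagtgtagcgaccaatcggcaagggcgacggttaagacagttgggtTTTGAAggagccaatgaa
The window of Aldoc holds 3 kappaB-like matches, which begin 52, 46 and 17 bases before the start, and those at 52 and 46 overlap. The single match of Fcer2a begins 115 bases before the start, and the TTTGAA of Cdc20 begins 18 bases before it. The kappaB-like pattern is loose and was found in 12238 of 27025 promoter windows (45.3%), and in 24 of the 31 windows matched for the NF-kappaB and CD40 targets (77.4%). TTTGAA or its reverse was found in 20 of 57 windows of the G2/M and mitosis genes (35.1%) and in 16.4% of all windows. ACGTG (on the other strand it reads CACGT), the core of the hypoxia response element, was found in 20 of 34 windows of the glycolysis and hypoxia response genes (58.8%) and in 16.4% of all windows, and these letters are not in the window of Aldoc, which belongs to that list. The windows compared were not matched for base composition, and a match is a description of letters, not a binding site.

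**Figure D3:**
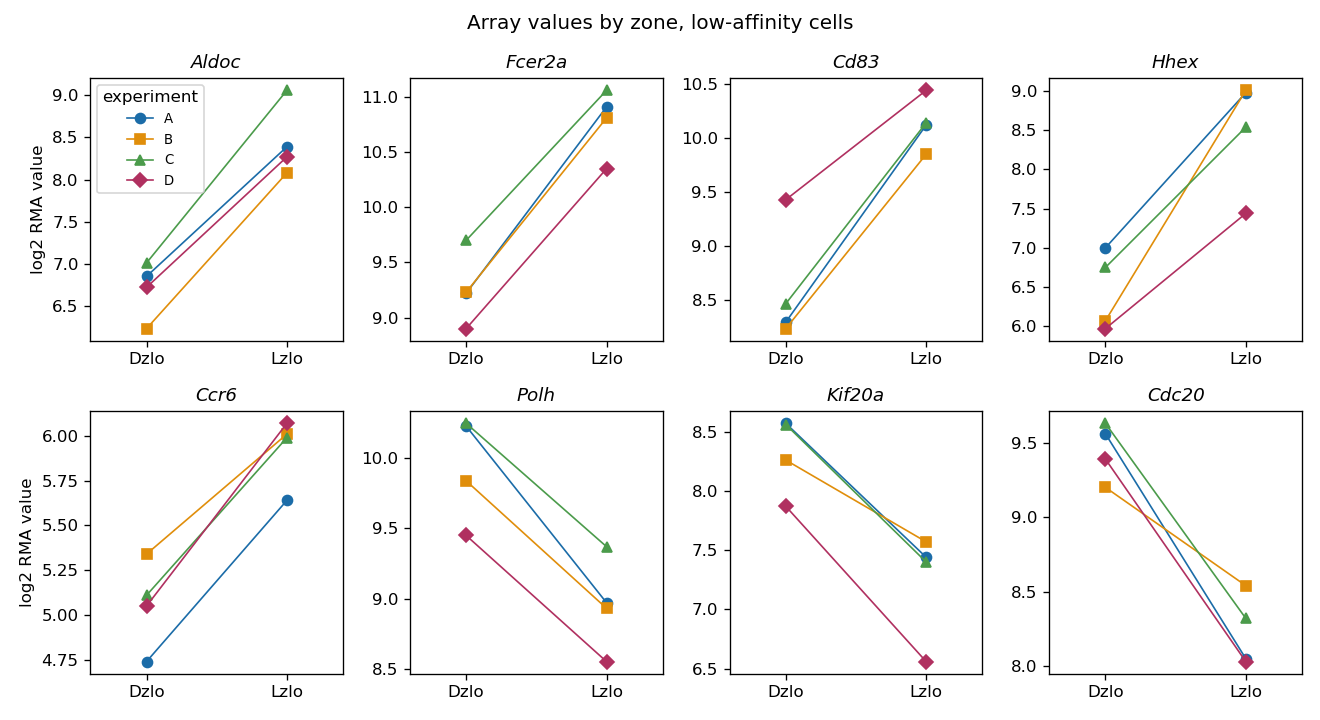
Log2 RMA value (vertical axis, scaled per gene) of 8 genes in each low-affinity array, with a line joining the Dzlo and Lzlo arrays of 1 experiment. Every line of Aldoc, Fcer2a, Cd83, Hhex and Ccr6 rises and every line of Polh, Kif20a and Cdc20 falls.

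Cd83 and Egr2, which respond to CD40 and antigen receptor signals, rose in the light zone, as did Themis2 and Plcb2, which belong to none of the lists. Cd83, a surface glycoprotein of activated B cells that is used as a light zone marker, was at 8.30, 8.24, 8.47 and 9.43 in Dzlo and at 10.12, 9.85, 10.14 and 10.44 in Lzlo. Its Dzlo array of experiment D stood above the other 3 and below every light zone array. Cd83 rose by 1.52 ± 0.24 (adjusted p = 0.0554, or 0.00742 with the block) and differed by 1.70 ± 0.18 without experiment D (adjusted p = 0.00597). Egr2, a zinc finger transcription factor induced early after receptor engagement, was at 7.49, 7.23, 7.98 and 7.99 in Dzlo and at 9.18, 8.73, 9.28 and 8.49 in Lzlo, and rose by 1.25 ± 0.23 (adjusted p = 0.11, or 0.0349 with the block and 0.0239 with the block and without experiment D). The smallest rise of Egr2, in experiment D, was from 7.99 to 8.49. Themis2, an adaptor of B cell receptor signalling, rose by 0.97 ± 0.24, from 7.65 to 8.45 in Dzlo to 8.74 to 9.49 in Lzlo (adjusted p = 0.0366 with the block, or 0.0416 without experiment D). Plcb2, a phospholipase C activated by G proteins, ran from 6.49 to 7.15 in Dzlo and from 7.29 to 8.63 in Lzlo and rose by 1.03 ± 0.25 (adjusted p = 0.0104 with the block, or 0.041 without experiment D). Neither gene's zones overlapped. Ifngr2, a chain of the interferon gamma receptor, and the sorting nexin gene Snx11 also passed with the block, at 0.85 ± 0.19 and 0.74 ± 0.26, but lie outside the 15 largest rises and were named after their values were seen. Without experiment D neither passed with the block (adjusted p = 0.142 and 0.159).

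Among the 36 measured NF-kappaB and CD40 targets, 33 lay above 0, against 48.6% of all genes, with a median of 0.32 where the median of all genes was -0.0048. Cd83 alone passed with the block, and 15 had an unadjusted p under 0.05 there, against 3.22% of all genes in that direction. Nfkbia, itself a target and the gene of the NF-kappaB inhibitor IkappaB alpha, was at 7.22, 7.02, 7.34 and 7.32 in Dzlo and at 8.45, 8.03, 8.13 and 7.85 in Lzlo. Its difference of 0.89 ± 0.18 did not pass (adjusted p = 0.163, or 0.14 with the block), although the zones did not overlap. The list holds Cd86, a sort marker, whose difference of 0.75 ± 0.15 is no finding but is counted among the 33 and the 15. The list's median ran from 0.29 to 0.39 over the experiments and was 0.29 without experiment D. It was 0.49 without Dzlo replicate 3. The immediate early and antigen receptor response genes, 36 in all, had 25 members above 0 and a median of 0.19, which was 0.098 without Lzlo replicate 3, 0.29 without Lzlo replicate 2, 0.31 without Dzlo replicate 3 and 0.35 among brighter genes. Egr2 passed there, Egr1 was at 1.01 ± 0.35 and Atf3, a stress-induced transcription factor, at -0.38 ± 0.13 (adjusted p = 0.2 and 0.454 with the block).

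For the presentation of antigen on MHC class II, 18 of 22 measured genes lay above 0 with a median of 0.41, and 13 had an unadjusted p under 0.05 with the block. Of all genes 48.6% lay above 0, and in limma with the block 3.22% were higher and 2.31% lower at that p. The same shares stand beside the counts of every list below. Cd86, a sort marker, belongs to this list and to the T cell contact list. Its difference is no finding in either, but it is among the genes counted above 0 and under that p in both. Cd83, which slows the turnover of MHC class II, was the member of the class II list that passed. Ifi30, the lysosomal thiol reductase that prepares antigens for loading, was at 9.92, 9.77, 10.65 and 11.12 in Dzlo and at 11.12, 11.26, 11.42 and 12.08 in Lzlo. The zones of Ifi30 met at 11.12, and its difference of 1.10 ± 0.30 had an adjusted p of 0.11 with the block and 0.0466 with the block and without experiment D. The invariant chain gene Cd74 differed by 0.49 ± 0.28 and Ciita, the master regulator of the class II genes, by 0.58 ± 0.20. The list's median was 0.27 without Lzlo replicate 4. Myeloid marker genes, which include some that antigen-presenting cells share, had a median of 0.15, 0.07 without experiment D and -0.051 without its Lzlo array alone, with mean levels of 4.95 to 5.49 in Dzlo and 4.98 to 5.84 in Lzlo, and their part in this list was not tested. Of 37 genes of T cell contact and costimulation 31 lay above 0, with a median of 0.26, and none passed (15 rising and 2 falling at an unadjusted p under 0.05 with the block in limma). Without Lzlo replicate 3 that median was 0.40, and among brighter genes 0.46. Cd72, a B cell coreceptor, had the lowest p of the list, with Dzlo arrays between 8.53 and 9.33, Lzlo arrays between 9.98 and 10.56 and a difference of 1.36 ± 0.24 (adjusted p = 0.0835, or 0.0596 with the block). Of 46 genes of B cell receptor signalling 34 lay above 0, the median was 0.21 and none passed (12 rising and 1 falling at an unadjusted p under 0.05 with the block in limma). Pik3ap1 had the lowest p of this list with the block, at 0.56 ± 0.16 (adjusted p = 0.0581 with the block in limma), and its zones did not overlap. Without experiment D it differed by 0.62 ± 0.17. Cd22, an inhibitory coreceptor, differed by 0.52 ± 0.17, and the phosphatase gene Ptpn6 by 0.48 ± 0.14. Akt1, a survival kinase, was at -0.98 ± 0.33 and below 0 in 4 of 4 experiments.

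The transcription factor genes Hhex and Klf12 and the positioning receptor genes Ccr6 and S1pr3 rose in the light zone. Hhex, a homeobox transcription factor known for its part in memory B cell formation, was at 7.0, 6.07, 6.75 and 5.97 in Dzlo and at 8.98, 9.01, 8.54 and 7.44 in Lzlo. It rose by 2.05 ± 0.34, a 4.13-fold difference (adjusted p = 0.0737, or 0.0275 with the block), and differed by 2.24 ± 0.28 without experiment D (adjusted p = 0.0236, or 0.024 with the block). Ccr6, the receptor for the chemokine CCL20 and a marker of memory precursors, was at 4.74, 5.34, 5.11 and 5.05 in Dzlo and at 5.64, 6.01, 5.99 and 6.07 in Lzlo. Ccr6 rose by 0.87 ± 0.13 (adjusted p = 0.0554, or 0.0104 with the block and 0.0605 with the block and without experiment D). Its dark zone values lay below every array median, and the filter on dim genes left it out. S1pr3, a receptor for sphingosine 1-phosphate, was at 7.61, 7.36, 6.86 and 7.37 in Dzlo and at 8.88, 8.65, 8.62 and 8.89 in Lzlo, and rose by 1.46 ± 0.22 (adjusted p = 0.0384 with the block, or 0.133 without experiment D). Every light zone array of these 3 genes lay above every dark zone array. Klf12, a Krüppel-like transcription factor, rose by 0.94 ± 0.17 from Dzlo values of 4.72 to 5.21 to Lzlo values of 5.66 to 6.07 (adjusted p = 0.0104 with the block, or 0.0466 without experiment D). The filter on dim genes left out Klf12 as well. Of 37 memory and quiescence genes 27 lay above 0, with a median of 0.27, or 0.21 without experiment D, and pair medians of 0.052, 0.28, 0.24 and 0.42. Hhex and Ccr6 passed in it. Nt5e, which encodes CD73 and belongs to the same list, went the other way, at 7.84, 7.85, 7.70 and 7.37 in Dzlo and 6.89, 7.06, 5.85 and 6.62 in Lzlo, a difference of -1.09 ± 0.22 that did not pass (adjusted p = 0.11 with the block). Of 25 positioning receptors and their partners 17 lay above 0, with a median of 0.18 that was 0.087 without Lzlo replicate 4 and 0.09 without Lzlo replicate 3. Cxcr5, which draws cells to the light zone, was at 0.72 ± 0.34. The sort marker Cxcr4 was at -0.63 ± 0.21, which is no finding, and did not pass (adjusted p = 0.986, or 0.316 with the block).

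The remaining rises belong to other functions. Serpinb1a, an inhibitor of neutrophil proteases, was at 5.68, 5.07, 6.58 and 4.81 in Dzlo and at 7.87, 8.03, 7.33 and 7.04 in Lzlo. It rose by 2.03 ± 0.34 (adjusted p = 0.0373 with the block, or 0.0929 without experiment D). Its lowest values in either zone were in experiment D, where the neutrophil markers were highest. Whether neutrophils had a part in its difference was not tested. Ckb, the brain-type creatine kinase, was at 6.38, 6.36, 6.67 and 7.02 in Dzlo and at 7.41, 8.0, 8.25 and 9.05 in Lzlo, and rose by 1.57 ± 0.27 (adjusted p = 0.0104 with the block). The Ckb difference was 1.42 ± 0.21 without experiment D (adjusted p = 0.024 with the block). Sorl1, a sorting receptor of endosomes, rose by 1.04 ± 0.21 from Dzlo values of 8.88 to 9.77 to Lzlo values of 10.18 to 10.74 (adjusted p = 0.0104 with the block, or 0.041 without experiment D). Slfn2, of the Schlafen family, and Ubxn11 rose by 1.27 ± 0.42 and 1.12 ± 0.33 with the block (adjusted p = 0.0349 and 0.0384), but their zones overlapped. Slfn2 was at 7.05, 6.60, 7.07 and 7.63 in Dzlo and 7.76, 7.57, 9.18 and 8.90 in Lzlo, so the Lzlo array of experiment B lay below the Dzlo array of experiment D. Without the block the adjusted p of Slfn2 was 0.923 and that of Ubxn11 was 0.7. Without experiment D neither passed with the block (adjusted p = 0.104 and 0.0652).

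Most genes of the mitotic list were lower in the light zone. Of 68 measured genes of G2, mitosis and cytokinesis 65 lay below 0, with a median of -0.49. In each of the 4 experiments 42 were lower, as were 8.81% of all genes, and in 13 the zones did not overlap, as in 0.918% of all genes in that direction. With the block 4 fell and 31 had an unadjusted p under 0.05, against 2.31% of all genes. Cdc20, which activates the anaphase-promoting complex, was at 9.56, 9.20, 9.63 and 9.39 in Dzlo and at 8.05, 8.54, 8.32 and 8.03 in Lzlo. Kif20a, a kinesin of cytokinesis, was at 8.57, 8.26, 8.56 and 7.87 in Dzlo and at 7.44, 7.57, 7.40 and 6.56 in Lzlo. Neither gene's zones overlapped, and both changed least in experiment B. Cdc20 fell by 1.21 ± 0.23 (adjusted p = 0.152, or 0.046 with the block) and Kif20a by 1.07 ± 0.25 (adjusted p = 0.353, or 0.00977 with the block). Cenpa, the centromeric histone H3 variant, fell by 1.02 ± 0.23 and Cdca8, a subunit of the chromosomal passenger complex, by 0.97 ± 0.26 (adjusted p = 0.0469 and 0.0235 with the block). The Lzlo array of experiment D had the lowest Cdca8 value, 7.65 against 8.63 to 8.79 in the other Lzlo arrays. Without experiment D, Kif20a kept its call with the block (adjusted p = 0.0461), and Cdc20, Cenpa and Cdca8 did not (0.0605, 0.0929 and 0.0717). Larger differences with wider spread were those of Cenpf, a kinetochore protein, at -1.56 ± 0.55, and cyclin B2, Ccnb2, at -1.48 ± 0.39, neither of which passed with the block (adjusted p = 0.0581 and 0.104).

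The size of this difference varied between experiments. The list's median was -0.70, -0.22, -0.40 and -0.88 in experiments A to D, and -0.41 with the pair of experiment D left out. Its mean level was 8.81, 8.62, 8.53 and 7.90 in Dzlo and 8.06, 8.37, 8.04 and 7.04 in Lzlo, so both arrays of experiment D were the lowest of their zone. Leaving out only the Lzlo array of that experiment (replicate 3) gave a median of -0.21 and leaving out only its Dzlo array (replicate 3) gave -0.74. Markers of neutrophils and T cells were highest in the same arrays, and their part in the size of this difference was not tested. In experiments A to D the neutrophil markers averaged 4.90, 5.35, 4.99 and 6.74 in Dzlo and 4.83, 5.54, 5.62 and 7.92 in Lzlo. Of 58 genes of the G1/S transition and DNA replication, 38 lay above 0 and their median was 0.052, with the other sign in 4 of 46 alternatives. None of them passed with the block (2 had an unadjusted p under 0.05 in limma, both higher). Among them, Ccnd2, which encodes cyclin D2, was at 0.81 ± 0.28.

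Of the 16 measured dark zone genes, 15 lay below 0 and 1 above, with a median of -0.73 that ran from -1.06 in experiment A to -0.43 in experiment B. Ccnb2, Kif20a, Mki67, Aurka, Plk1, Hmmr and Cdc25b belong to both this list and the mitotic one. Polh, the error-prone DNA polymerase eta that mutates A and T bases in antibody genes, was at 10.23, 9.84, 10.25 and 9.45 in Dzlo and at 8.97, 8.93, 9.37 and 8.55 in Lzlo. Polh fell by 0.99 ± 0.23, a 1.98-fold difference (adjusted p = 0.353, or 0.00863 with the block and 0.041 with the block and without experiment D). Its zones did not overlap. Polh was the 1 of 37 genes of somatic hypermutation and DNA repair that passed. Of these 37 genes, 19 lay above 0 and 18 below, and their median was 0.007, with the other sign in 12 of 46 alternatives. Pafah1b3, a lipid hydrolase subunit, was at -1.35 ± 0.30 and between -1.51 and -1.19 in each experiment without passing (adjusted p = 0.118 with the block). The 1 member of the dark zone list above 0 was Cxcr5, described above as drawing cells to the light zone. Of 25 light zone genes 24 lay above 0, with a median of 0.62 and pair medians from 0.53 to 0.70, and Cd83, Ccr6 and Egr2 passed. These lists were drawn from knowledge of the zones, and genes in them were in part chosen from such sorts.

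The other genes that fell in the light zone encode proteins of several kinds. Otub2, a deubiquitinase, was at 8.67, 8.23, 8.13 and 8.39 in Dzlo and at 7.49, 6.96, 6.67 and 6.36 in Lzlo, and fell by 1.48 ± 0.25 (adjusted p = 0.046 with the block, or 0.166 without experiment D). Myl4, a myosin light chain, was at 11.14, 10.96, 11.06 and 10.91 in Dzlo and at 9.81, 10.07, 9.81 and 9.28 in Lzlo, and fell by 1.28 ± 0.20 (adjusted p = 0.0554, or 0.00742 with the block). The Myl4 call held without experiment D (adjusted p = 0.0239 with the block). Serinc5, a membrane protein that restricts retroviruses, fell by 1.20 ± 0.22, from 6.52 to 7.56 in Dzlo to 5.72 to 5.95 in Lzlo (adjusted p = 0.0469 with the block, or 0.041 without experiment D). Hmces, a sensor of abasic sites in DNA, was at 10.84, 10.88, 10.84 and 10.92 in Dzlo and at 10.11, 9.84, 10.38 and 10.08 in Lzlo. Hmces fell by 0.77 ± 0.13 (adjusted p = 0.08, or 0.0279 with the block), and without experiment D it did not pass (adjusted p = 0.101 with the block). Its 4 dark zone arrays lay within a narrower range than its light zone arrays. Smarca4, the ATPase of the BAF chromatin remodelling complex, fell by 0.81 ± 0.20 and was the 1 of 39 chromatin regulators that passed with the block (adjusted p = 0.0349, or 0.126 without experiment D). Mprip, a partner of myosin phosphatase, fell by 1.04 ± 0.27 (adjusted p = 0.0164 with the block, or 0.0419 without experiment D). The keratin gene Krt222 fell by 1.04 ± 0.19 and Ccdc190 by 0.90 ± 0.14, and without experiment D neither passed with the block (adjusted p = 0.0717 and 0.0652).

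Of 37 genes of glycolysis and the hypoxia response only Aldoc passed with the block, and the median of that list was 0.052, with the other sign in 3 of 46 alternatives. Its other aldolase, Aldoa, was at 0.25, and Pgk1, another glycolytic enzyme, at -0.12 ± 0.14. Anxa2, a membrane-binding protein in the same list, was at 10.90, 10.62, 10.98 and 11.08 in Dzlo and at 9.99, 9.89, 10.58 and 10.51 in Lzlo, and its difference of -0.65 ± 0.20 did not pass (adjusted p = 0.261 with the block). Of 32 genes of cholesterol and lipid synthesis 28 lay above 0, against 48.6% of all genes, with a median of 0.36 and 0.46 without experiment D. None of these passed (12 had an unadjusted p under 0.05 with the block in limma, all higher, against 3.22% of all genes). Insig1, a sterol sensor of the endoplasmic reticulum, was at 0.55 ± 0.18 and Fdft1, squalene synthase, at 0.64 ± 0.19. Of 57 subunits of oxidative phosphorylation 51 lay below 0, against 10245 of all 19938 genes, with a median of -0.16 and single experiments between -0.29 and -0.02, and none passed (5 had an unadjusted p under 0.05 with the block in limma, all lower, against 2.31% of all genes). With the block, their median was -0.067 without Dzlo replicate 3 and -0.095 without Lzlo replicate 4.

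**Figure D4:**
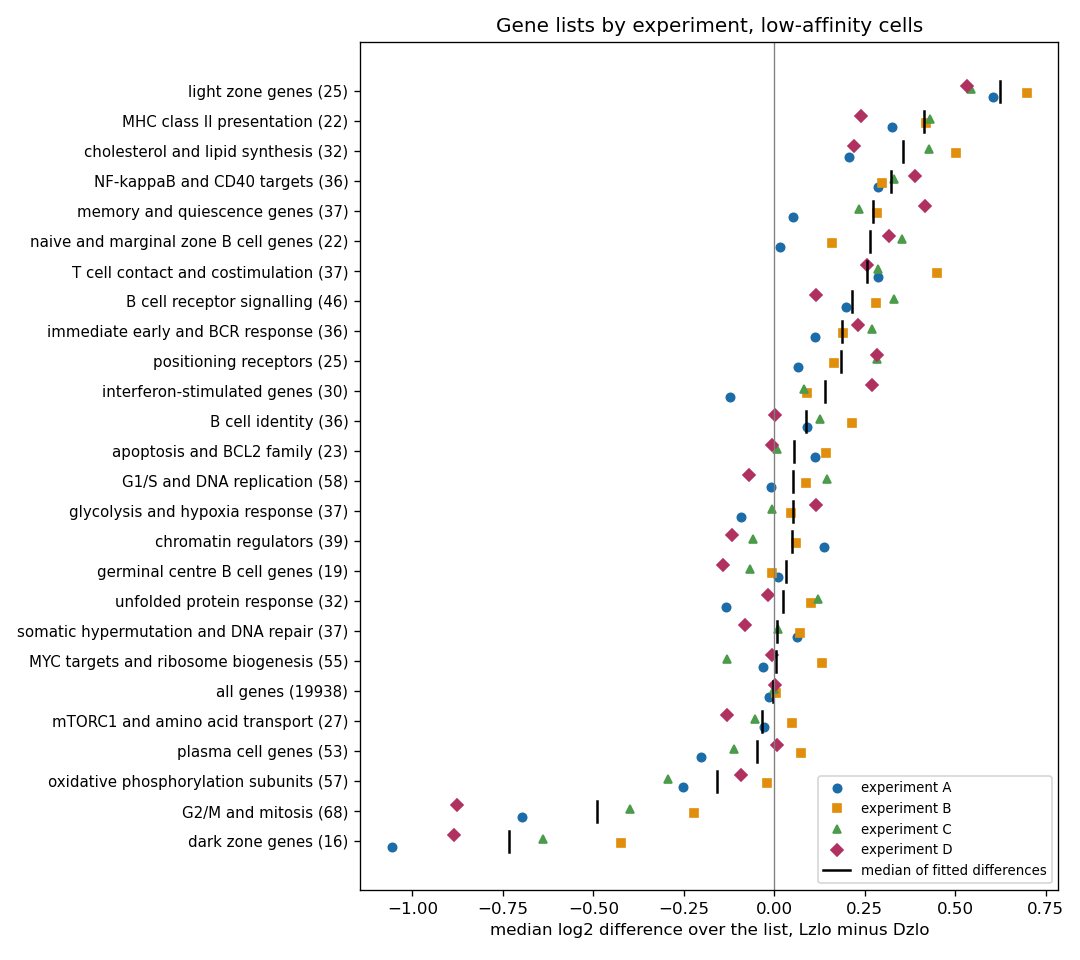
Median log2 difference Lzlo minus Dzlo over the measured genes of each list (horizontal axis, number of genes in brackets) within each experiment, with a vertical tick at the median of the fitted differences and all genes as a reference row. The 4 experiments fall below 0 for dark zone, G2/M and oxidative phosphorylation genes. They fall above 0 for light zone, NF-kappaB, immediate early, cholesterol, memory, MHC class II and T cell contact genes. The same holds for B cell receptor signalling, B cell identity, positioning and naive B cell genes.

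The high-affinity arrays give the same zone contrast in other samples of the same experiments. They also entered the fit that chose the 30 genes and share its error and its block, so small p-values among them are in part fixed by the choice. All 30 genes had the same sign there, 28 had an unadjusted p under 0.05 with the block (4.07% of all genes), and 7 passed (0.0552%). The 7 were Fcer2a, Cd83, Slfn2, Egr2, Polh, Smarca4 and Hmces. Without the block, Fcer2a differed by 1.86 ± 0.19 among high-affinity cells, Egr2 by 1.61 ± 0.25, Cd83 by 1.46 ± 0.26 and Hmces by -0.87 ± 0.14. With the block, these differences were 1.77, 1.57, 1.6 and -0.87. Whether a zone difference depended on affinity was tested as the difference between both zone differences. No gene passed in limma without or with the block (0% of genes), with 266 and 380 genes at an unadjusted p under 0.05 (1.33% and 1.91%). Since the genes named here were chosen for their low-affinity difference, a larger value among low-affinity cells is in part fixed by the choice. Ccr6 was the named gene with the lowest p, at 0.87 ± 0.13 among low-affinity and 0.16 ± 0.14 among high-affinity cells, a difference of 0.71 ± 0.20 (unadjusted p = 0.00292, adjusted p = 1 in limma). Kif20a was at -1.07 ± 0.25 and -0.28 ± 0.27 (unadjusted p = 0.0501 in limma) and Cdc20 at -1.21 ± 0.23 and -0.41 ± 0.25 (0.0364). The mean of Ccr6 was 5.14 in Lzhi and 4.98 in Dzhi, below every array median. Unlike the low-affinity differences, the high-affinity ones change with the block, since experiment D lacks an Lzhi array. With the block they were 0.18 for Ccr6, -0.48 for Kif20a and -0.53 for Cdc20. The difference between zone differences then had an unadjusted p of 0.00114, 0.00788 and 0.0387 in limma. The mitotic list as a whole had a median of -0.49 among low-affinity cells, with 65 of 68 genes below 0, and of -0.058 among high-affinity cells, with 39 below 0. The memory and quiescence list had medians of 0.27 (0.21 without experiment D) and -0.094, and the light zone list of 0.62 and 0.61. These list values have no test, and experiment D has no Lzhi array. Within experiments A, B and C the mitotic median was -0.70, -0.22 and -0.40 among low-affinity cells and 0.02, -0.16 and -0.29 among high-affinity cells. The memory and quiescence median was 0.052, 0.28 and 0.24 among low-affinity cells and 0.082, -0.051 and -0.14 among high-affinity cells. In experiment A the high-affinity value of that list was thus the larger.

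**Figure D5:**
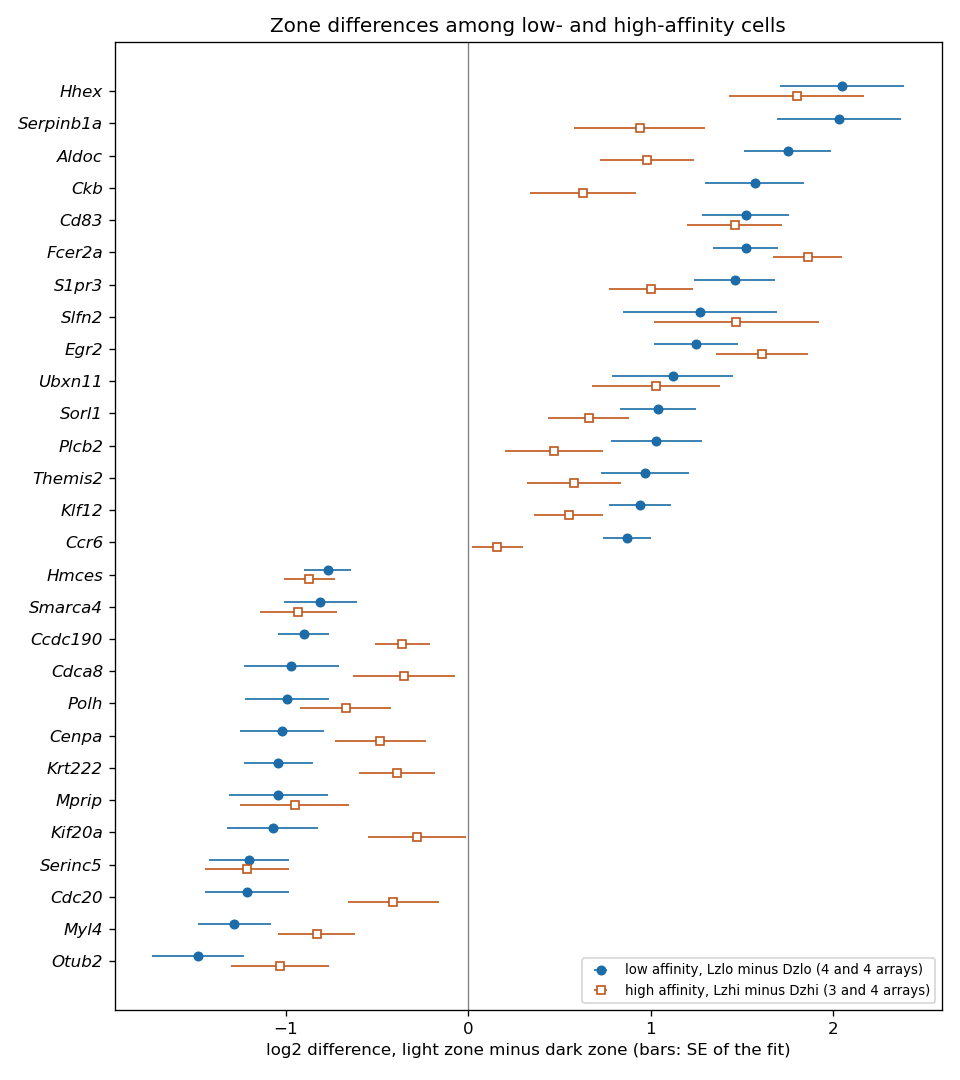
Light zone minus dark zone difference (log2, horizontal axis) of the 28 named genes that passed among low-affinity cells with the block, as filled circles for low affinity and open squares for high affinity, with bars of 1 standard error of the fit without the block. All differences share their sign between affinities, and Ccr6 is at 0.87 and 0.16.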

How the data were processed

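The values are log2 RMA values of 28853 probe sets, as the authors deposited them, from 15 samples of amplified RNA on 1 array each. RMA removes background, equalises the distributions of the arrays and combines probes into probe sets, and it is named with build mm8 in the submitters' processing notes. Its software is not given in the sources used here. It compresses differences of dim probe sets. Array medians ran from 5.57 to 5.74, and the number of arrays limits the precision.

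Groups came from titles and experiments from descriptions. The 21789 probe sets to which the platform annotation gives 1 gene cover 19938 genes. Where a gene had several (999 genes), that with the highest mean was used. A further 1621 name several genes, 5443 name none, and neither kind was used. Of 1120 list entries, 91 were unmatched and are not analysed here. No pair of arrays correlated above 0.993.

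Group means were fitted to 15 arrays with lmFit and eBayes of limma 3.58.1 (R 4.3.3), with 11 residual degrees of freedom, or 8 with the experiment as a block. P-values were adjusted over all genes by Benjamini-Hochberg. Steps were tested on simulated data. Named genes were those that passed, the 15 largest rises and falls that passed with the block, up to 2 genes per list and direction with an unadjusted p under 0.01 there, and the sort markers. From the largest, predicted genes, olfactory receptors, small RNAs and antigen receptor segments were left out. Other genes were named after their values were seen. The comparison, its members and the lists were chosen with earlier results of these data known. The pairing comes from the codes and from the title numbers, which join the same low-affinity arrays. Alternatives changed the block, arrays, normalization, filter, probe set rule, variance model, weights and threshold. Figures used matplotlib 3.10.9.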

Additional observations from a re-analysis of the deposited data

Results flagged for a closer look

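In 178 groups of 4 arrays (each zone, for the named genes and the list levels), 3 held an array whose gap to its nearest neighbour, divided by the group's range, exceeded the critical value of Dixon's test. Chance gives about 1 in 20 groups. Cdca8 in the Lzlo array of experiment D was at 7.65, below the other Lzlo arrays at 8.63 to 8.79. Cd22 in the Dzlo array of experiment D was at 11.1, above the other Dzlo arrays at 10.65 to 10.7. The mean level of the glycolysis and hypoxia response list in the Dzlo array of experiment B was 7.35, below the other Dzlo arrays at 7.53 to 7.54. No named gene moved in opposite directions in every array pair of low- and high-affinity cells.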

How the results depend on the processing

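Of the 57 genes named by the rule, none changed sign in its 48 alternatives (46 for Klf12, Ccr6 and Atf3, which the filter on dim genes left out), and the other named genes were not followed through them. The 8 low-affinity arrays limit the precision. The count of genes that passed in limma, 2, became 30 with the replicate block, which pairs the zones by experiment, 11 with code B of the block as written and 18 with a random block. It was 0 with only the low-affinity arrays (632 at an unadjusted p under 0.05), 11 with quantile normalization, 7 among brighter genes, 8 with the mean of probe sets, 1 with every probe set, 6 with a trended and robust variance, 16 with array weights and 13 at an adjusted p under 0.1. Leaving out each array gave 0 to 4. With the block, 30 became 47 in the low-affinity arrays only and 16 with equal array medians, and leaving out each array gave 2 to 59 (3, 15 and 5 without Lzlo replicates 2, 3 and 4, and 14 without Dzlo replicate 3). The 16 split into 9 higher and 7 lower, the 30 into 17 and 13. At an adjusted p under 0.1 with the block 42 passed. No gene passed the test of the difference between zone differences in any alternative (266 at an unadjusted p under 0.05 in limma). The medians of the glycolysis, mTORC1, MYC, G1/S, hypermutation, plasma cell, unfolded protein, germinal centre, apoptosis and chromatin lists each changed sign in at least 1 alternative. The cause of these moves was not tested. Leaving out all of experiment D with the block gave the same 24 calls as leaving out its low-affinity arrays, since its Dzhi array then stands alone in its block.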

Other observations

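Of 53 plasma cell genes 21 lay above 0 and 32 below, and none passed with the experiment as a block (5 higher and 5 lower at an unadjusted p under 0.05 in limma). Jchain, the joining chain of secreted antibody, was at 11.07, 10.62, 10.96 and 9.78 in Dzlo and at 10.02, 9.50, 10.38 and 8.16 in Lzlo, a difference of -1.09 ± 0.39 (adjusted p = 0.23 with the block). Every light zone array lay below the dark zone array of its own experiment. Tent5c, a poly(A) polymerase of plasma cells, was at -0.82 ± 0.21, and Pdia6, a chaperone of the endoplasmic reticulum, at 0.43 ± 0.14. Of 32 genes of the unfolded protein response 20 lay above 0, with Eif2ak3, the kinase PERK, at -0.71 ± 0.20 and Calr, calreticulin, at 0.37 ± 0.20. Of 23 genes of apoptosis 15 lay above 0 with a median of 0.054, and the pro-apoptotic gene Bmf was at 0.63 ± 0.18. None of the members of these lists passed with the block.

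Genes of naive and marginal zone B cells, 22 in all, had 15 members above 0, a median of 0.26 and pair medians of 0.015, 0.16, 0.35 and 0.32 in experiments A to D. The median was 0.14 without Lzlo replicate 4. Fcer2a, which is among them, passed. Cr2, the complement receptor CD21, was at 9.57, 10.01, 9.55 and 9.38 in Dzlo and at 10.62, 10.76, 10.49 and 10.16 in Lzlo, without overlap, and its difference of 0.88 ± 0.26 did not pass (adjusted p = 0.316 with the block). Among the germinal centre genes, Gcsam was at -0.81 ± 0.33, Tox at 0.68 ± 0.17 and Lmo2 at 0.62 ± 0.19. Of 30 interferon-stimulated genes 19 lay above 0 with a median of 0.14, which was 0.058 without experiment D, 0.072 without its Lzlo array alone and 0.087 without Dzlo replicate 2 or Lzlo replicate 4. The 55 MYC target and ribosome biogenesis genes had a median of 0.003, with 28 above 0 and 27 below.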
